A study of Mus musculus with 18 samples.

Results

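The genes described here make, load, recycle and break down acetylcholine, the transmitter that motor neurons release onto muscle. They are Chat, Slc5a7, Slc10a4, Ache, Prima1 and Acly, which were taken by gene name from the deposited gene tables, 6 of 38924 genes listed. Each name matched 1 row, and all 6 passed the filter on low counts. The series sequenced mRNA carried by tagged ribosomes from the spinal cords of 18 mice aged 8 weeks, on a strain background written as B6;CASTxB6.129. In the RiboTag method, Cre recombinase switches on a haemagglutinin-tagged ribosomal protein Rpl22, and an antibody to the tag brings down tagged ribosomes with their mRNA. All 18 mice carried 1 RiboTag allele (Rpl+/-). The 4 groups were Cre P278KY (n = 3, Chat+/- and P278KY+/-), Cre WT (n = 4, Chat+/- and P278KY+/+), NoCre P278KY (n = 6, Chat+/+ and P278KY+/-) and NoCre WT (n = 5, Chat+/+ and P278KY+/+). P278KY is a dominant change in Gars, the gene of glycyl-tRNA synthetase, and mice heterozygous for it have a motor neuropathy. NoCre libraries hold RNA that came down without a tag and serve as negative controls. Cre was driven from Chat itself, so the tag can be present in every Chat-expressing neuron of the cord, not motor neurons alone. Every Cre mouse carried the Cre allele at Chat and no NoCre mouse did, so an effect of that allele on Chat mRNA cannot be told apart from enrichment.

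Acetylcholine is made in the cytosol by choline acetyltransferase (Chat) from choline and acetyl-CoA. Acly, ATP citrate lyase, supplies cytosolic acetyl-CoA from citrate. Slc5a7 is the high-affinity transporter that returns choline to the nerve ending, and Slc10a4 is a protein of synaptic vesicles in cholinergic and monoaminergic neurons. Ache, acetylcholinesterase, splits released acetylcholine, and Prima1 is the membrane anchor that holds acetylcholinesterase on neurons.

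The genes lie on 5 chromosomes in GRCm38 (GENCODE M21). Chat is at chr14:32408203-32465989 on the minus strand, Slc5a7 at chr17:54273590-54299034 on the minus strand, and Slc10a4 at chr5:73006883-73012955 on the plus strand. Ache is at chr5:137287519-137294466 on the plus strand, Prima1 at chr12:103196908-103242150 on the minus strand, and Acly at chr11:100476353-100528000 on the minus strand. Promoter windows from RefSeq (GRCm38.p6, 250 bases before to 50 after the gene start) were found for all 6 genes, and 4 are printed to show how unlike they are for genes that moved together between Cre and NoCre libraries. They were searched on both strands for the GC box GGGCGG, which 35.7% of 32851 promoters of this length hold, and for the E-box CAGCTG, which 16.3% hold. Neighbouring GC boxes may share bases, and capitals mark matches to either motif. The windows are chr14:32465860-32466159 (minus) for Chat, chr17:54298985-54299284 (minus) for Slc5a7, chr5:73006654-73006953 (plus) for Slc10a4 and chr5:137288004-137288303 (plus) for Ache. RefSeq and GENCODE starts differ for some genes, and the whole Ache window lies within the GENCODE span of Ache given above.
Chat: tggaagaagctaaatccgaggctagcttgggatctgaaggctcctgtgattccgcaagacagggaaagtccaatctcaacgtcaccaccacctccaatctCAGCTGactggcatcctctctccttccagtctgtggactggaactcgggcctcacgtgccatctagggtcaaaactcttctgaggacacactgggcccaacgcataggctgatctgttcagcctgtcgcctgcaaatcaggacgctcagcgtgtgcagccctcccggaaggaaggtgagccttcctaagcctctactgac
Slc5a7: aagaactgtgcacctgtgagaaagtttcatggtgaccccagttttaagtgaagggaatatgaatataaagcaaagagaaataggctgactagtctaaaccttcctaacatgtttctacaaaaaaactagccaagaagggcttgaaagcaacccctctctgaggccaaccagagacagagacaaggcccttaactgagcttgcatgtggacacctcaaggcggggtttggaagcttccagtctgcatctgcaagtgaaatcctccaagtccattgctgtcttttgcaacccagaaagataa
Slc10a4: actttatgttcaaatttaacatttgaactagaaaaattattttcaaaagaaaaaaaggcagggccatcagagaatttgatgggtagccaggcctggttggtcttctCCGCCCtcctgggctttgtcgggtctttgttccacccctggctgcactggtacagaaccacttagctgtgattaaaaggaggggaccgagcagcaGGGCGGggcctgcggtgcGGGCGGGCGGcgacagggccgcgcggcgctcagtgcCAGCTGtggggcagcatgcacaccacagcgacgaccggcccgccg
Ache: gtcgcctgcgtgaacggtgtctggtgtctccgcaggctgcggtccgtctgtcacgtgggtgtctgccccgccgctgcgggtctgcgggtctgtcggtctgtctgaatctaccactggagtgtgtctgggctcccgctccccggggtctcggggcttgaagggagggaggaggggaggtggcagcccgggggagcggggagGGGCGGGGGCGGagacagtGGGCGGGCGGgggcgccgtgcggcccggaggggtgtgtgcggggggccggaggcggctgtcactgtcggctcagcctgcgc
The Chat window held no GC box, 1 E-box and 10 CpG dinucleotides. The Slc5a7 window held neither motif and 1 CpG, fewer than in most promoters (median 7, quartiles 3 and 20). By contrast, the Slc10a4 window held 4 GC boxes, 1 E-box and 18 CpG, and the Ache window 4 GC boxes and 30 CpG. The Prima1 window held 1 GC box, 1 E-box and 33 CpG, and the Acly window 4 GC boxes and 18 CpG. Of the 6 windows, only those of Ache and Prima1 lay above the third quartile of CpG. GC content was lowest in the Slc5a7 window (44.7%) and highest in the Ache window (74%) of the 6.

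Library totals were 15461440 to 18944769 counts for Cre P278KY mice and 14659488 to 24028649 for Cre WT mice. Those of NoCre P278KY mice were 9876808 to 14450144 and those of NoCre WT mice 8177758 to 11480402. Mitochondrial ribosomal RNA took 1.36% to 4.88% of the counts in Cre and 24.2% to 53.8% in NoCre libraries, where NoCre WT replicates 4, 5 and 2 had the highest shares (53.8%, 45% and 42.6%). The library names reuse the same index sequences and run of sample numbers, from which 10 libraries were taken here as a first pool and 8 as a second. The labels do not call these sets pools or say what divides them. All 3 Cre P278KY libraries were in pool 1, Cre WT replicates 1 and 2 in pool 1 and replicates 3 and 4 in pool 2. By Xist, every NoCre library of pool 1 (0.348 to 0.666 CPM) came from a male and every one of pool 2 (323.1 to 1183 CPM) from a female. Cre WT libraries also differed in Xist between pool 1 (0.0824 to 0.311 CPM) and pool 2 (40.1 to 59.2 CPM), so pool and sex cannot be told apart among them. All 9 motor neuron markers examined were higher in Cre in both genotypes, with summed CPM of 2769 to 3845 in Cre P278KY against 314.8 to 601.1 in NoCre P278KY, and 4248 to 7656 in Cre WT against 558.1 to 1387 in NoCre WT. Among Cre WT libraries this sum was 6911 to 7656 in pool 1 and 4248 to 4389 in pool 2, whereas the sum of 8 oligodendrocyte markers was 744.9 to 1179 in pool 1 and 3600 to 4073 in pool 2. In Cre P278KY libraries the oligodendrocyte sum was 697.1 to 1755. The part that these differences between pools play in the results below was not tested.

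All 6 genes were strongly enriched on tagged ribosomes in both genotypes, with the 3 genes of the cholinergic nerve ending, Slc10a4, Chat and Slc5a7, ahead of Acly, Prima1 and Ache. CPM below are counts per 1000000 scaled by TMM (trimmed mean of M values). In P278KY mice the vesicle protein gene Slc10a4 was 53.1-fold, Chat 36.5-fold and the choline transporter gene Slc5a7 31.9-fold higher in Cre than in NoCre libraries. Acly was 13.1-fold, Prima1 7.04-fold and Ache 4.66-fold higher. In WT mice Slc10a4 (52.2-fold) was again first and Ache (4.197-fold) last, with Slc5a7 at 21.9-fold, Chat at 15.4-fold, Acly at 10.1-fold and Prima1 at 7.69-fold between them.

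Chat had 119.5, 97.8 and 97.7 CPM in Cre P278KY libraries, against a lowest of 1.93, a median of 3.04 and a highest of 3.58 CPM in NoCre P278KY. It had 148.3, 169.1, 80.9 and 87.5 CPM in Cre WT libraries, against 7.85, 6.07, 5.86, 6.77 and 12.9 CPM in NoCre WT. Neither pair of groups overlapped, and the 2 pool 1 libraries of Cre WT were the highest of all 18. The log2 fold change was 5.19 ± 0.28 (SE) in P278KY mice and 3.95 ± 0.27 in WT mice (edgeR quasi-likelihood test, adjusted p = 7.27e-12 and 3.16e-10). The NoCre values rest on 19 to 51 reads per P278KY library and 34 to 90 per WT library. An unstranded count could include reads of Gm2990, a gene on the other strand that overlaps Chat by 948 bases. Gm2990 had 44 to 239 reads in Cre P278KY libraries against 0 to 15 in NoCre P278KY, and 79 to 360 in Cre WT against 0 to 12 in NoCre WT, and whether counting used strand is not given in the sources used here.

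Slc5a7 had 799.7, 807.9 and 416.1 CPM in Cre P278KY libraries, against 17.1 (lowest), 20.6 (median) and 26.2 (highest) in NoCre P278KY. In Cre WT libraries it had 570.0, 337.0, 602.4 and 489.7 CPM, against 25.6, 29.2, 25.1, 17.7 and 15.8 in NoCre WT. It was the one gene of the 6 whose Cre WT libraries did not split by pool, and its lowest Cre values were those of Cre P278KY replicate 3 and Cre WT replicate 2. Its log2 fold change was 5.00 ± 0.25 in P278KY mice and 4.46 ± 0.25 in WT mice (edgeR, adjusted p = 3.44e-12 and 3.00e-11).

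Slc10a4 had 189.5, 179.6 and 171.3 CPM in Cre P278KY libraries, against 1.39, 3.84 and 4.44 (lowest, median and highest) in NoCre P278KY. It had 362.4, 409.6, 193.3 and 210.2 CPM in Cre WT libraries, against 8.11, 4.45, 5.26, 5.57 and 4.56 in NoCre WT. This was the largest enrichment of the 6 genes in both genotypes, with a log2 fold change of 5.73 ± 0.29 in P278KY mice and 5.71 ± 0.31 in WT mice (edgeR, adjusted p = 3.44e-12 and 8.82e-12). NoCre P278KY replicate 6 held 8 reads of it.

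Ache had 184.1, 158.2 and 162.9 CPM in Cre P278KY libraries, against 30.9, 35.01 and 45.5 (lowest, median and highest) in NoCre P278KY. It had 221.3, 219.5, 129.9 and 148.9 CPM in Cre WT libraries, against 39.2, 32.8, 47.3, 45.8 and 49.4 in NoCre WT. Of the 6 genes, the esterase gene was enriched least, and its NoCre level stood on 204 to 554 reads per library. Its anchor gene Prima1 had 22.9, 20.9 and 29.7 CPM in Cre P278KY libraries, against 2.63, 3.47 and 4.12 (lowest, median and highest) in NoCre P278KY. In Cre WT libraries Prima1 had 51.8, 71.4, 23.99 and 25.3 CPM, against 6.46, 2.63, 4.07, 7.56 and 7.60 in NoCre WT. Both genes were higher in every Cre library than in any NoCre library of the same genotype. The log2 fold change was 2.22 ± 0.19 in P278KY and 2.07 ± 0.19 in WT mice for Ache (edgeR, adjusted p = 5.34e-09 and 1.42e-08), and 2.82 ± 0.33 and 2.94 ± 0.33 for Prima1 (adjusted p = 3.95e-07 and 2.30e-07).

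Acly had 1182, 955.3 and 1180 CPM in Cre P278KY libraries, against 71.5, 83.7 and 98.4 (lowest, median and highest) in NoCre P278KY. It had 1498, 1588, 893.5 and 882.1 CPM in Cre WT libraries, against 111.0, 95.5, 92.8, 147.9 and 156.9 in NoCre WT. NoCre WT replicates 4 and 5 had the highest NoCre levels. The log2 fold change was 3.71 ± 0.21 in P278KY and 3.33 ± 0.22 in WT mice (edgeR, adjusted p = 2.11e-11 and 1.48e-10).

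**Figure D1:**
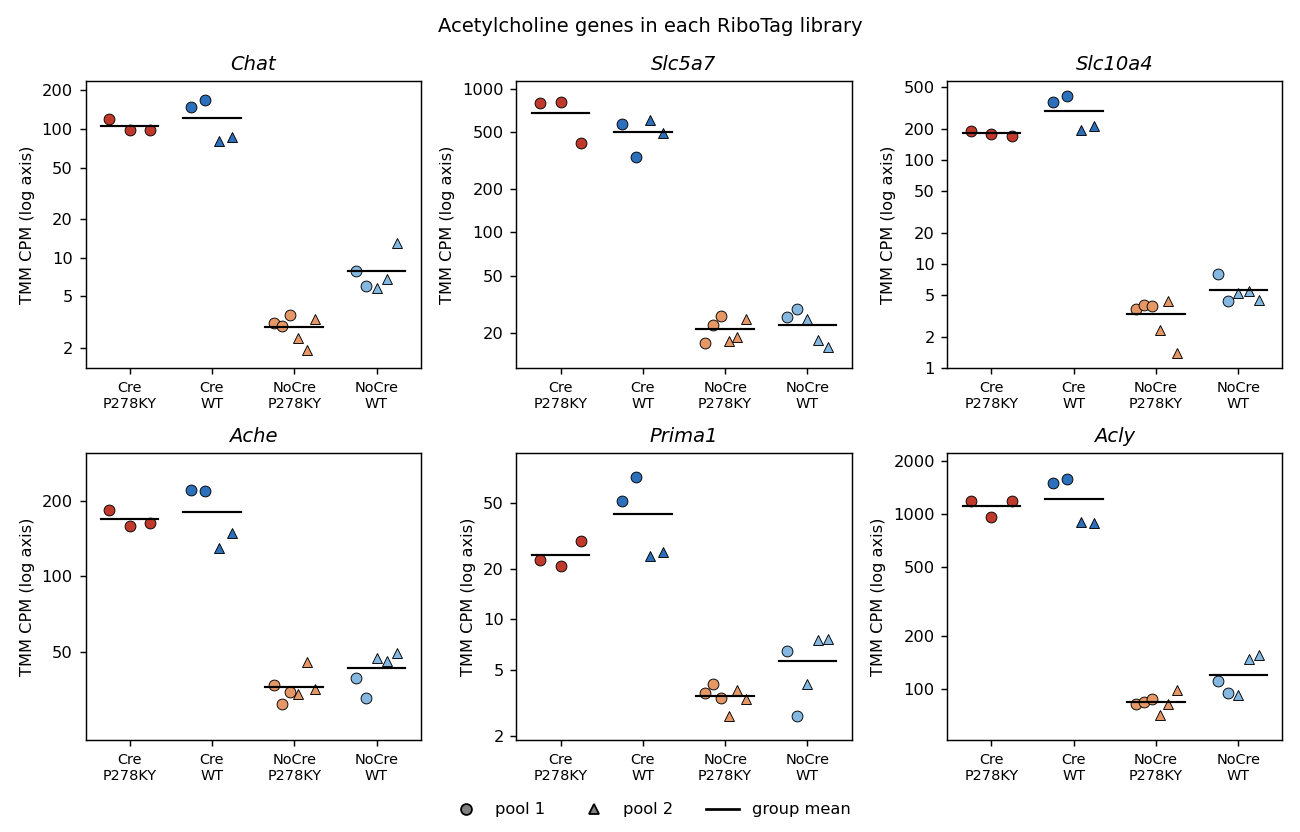
TMM-scaled CPM (log axis) of the 6 genes in each of the 18 libraries, by group, with circles for pool 1, triangles for pool 2 and a line at the group mean. Every Cre library lies above every NoCre library of its genotype for each gene, and in Cre WT the pool 1 libraries lie above the pool 2 libraries for all genes but Slc5a7.

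Thus 6 of 6 genes were called higher in P278KY mice, where 28.2% of 17133 genes tested were called higher, and 6 of 6 in WT mice, where 28.5% were. Groups did not overlap for 6 of 6 genes in either genotype, beside 28.3% of genes higher without overlap in P278KY mice and 22.5% in WT mice. All 6 also passed within pool 1 in both genotypes and within pool 2 in WT mice. In WT mice, 5 of the 6 had smaller folds within pool 2 than within pool 1, with log2 fold changes of 3.29 against 4.53 for Chat, 1.94 against 3.76 for Prima1 and 2.73 against 3.92 for Acly, while Slc5a7 gave 4.79 in pool 2 and 4.08 in pool 1. The difference between pools was not tested.

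The ratio of each gene to Chat within a library hardly depends on how libraries are scaled, and a change of this ratio between Cre and NoCre says whether a gene was enriched more or less than Chat. Ache, Prima1 and Acly were enriched less than Chat in both genotypes. Slc10a4 was enriched more than Chat in WT mice, and Slc5a7 could not be told from Chat in either. The log2 ratio of Ache to Chat was 0.68 ± 0.06 in Cre and 3.61 ± 0.46 in NoCre libraries of P278KY mice (SD, n = 3 and 6), a difference of −2.92. It was 0.60 ± 0.17 in Cre and 2.47 ± 0.41 in NoCre libraries of WT mice (SD, n = 4 and 5), a difference of −1.87 (exact permutation test, two-sided, adjusted p = 0.0227 for both). For Prima1 the difference was −2.38 in P278KY and −1.06 in WT mice, and for Acly −1.44 and −0.60 (exact permutation tests, adjusted p = 0.0227 for all 4). In WT mice the Slc10a4 to Chat ratio was 1.27 ± 0.01 in Cre and −0.46 ± 0.60 in NoCre libraries, a difference of 1.73 (exact permutation test, adjusted p = 0.0227). In P278KY mice it was 0.78 ± 0.11 and 0.13 ± 0.76, and the difference of 0.66 did not pass (exact permutation test, adjusted p = 0.238). The Slc5a7 to Chat ratio differed by −0.20 in P278KY mice (exact permutation test, adjusted p = 0.452) and by 0.55 in WT mice (exact permutation test, adjusted p = 0.388), and the WT value was −0.50 within pool 1 and 1.44 within pool 2. These tests cover 10 comparisons, and with 3 against 6 libraries no p below 0.0119 was possible before adjustment. With any 1 Cre P278KY library left out, the differences of Ache, Prima1 and Acly in P278KY mice kept their direction but missed the threshold (exact permutation tests, adjusted p = 0.051 throughout). The smallest possible p then rises, and these groups did not overlap, so this miss cannot tell a weaker difference from too few libraries. Prima1 and Acly in WT mice also missed it with any 1 Cre WT library left out (exact permutation tests, adjusted p = 0.051 throughout).

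**Figure D2:**
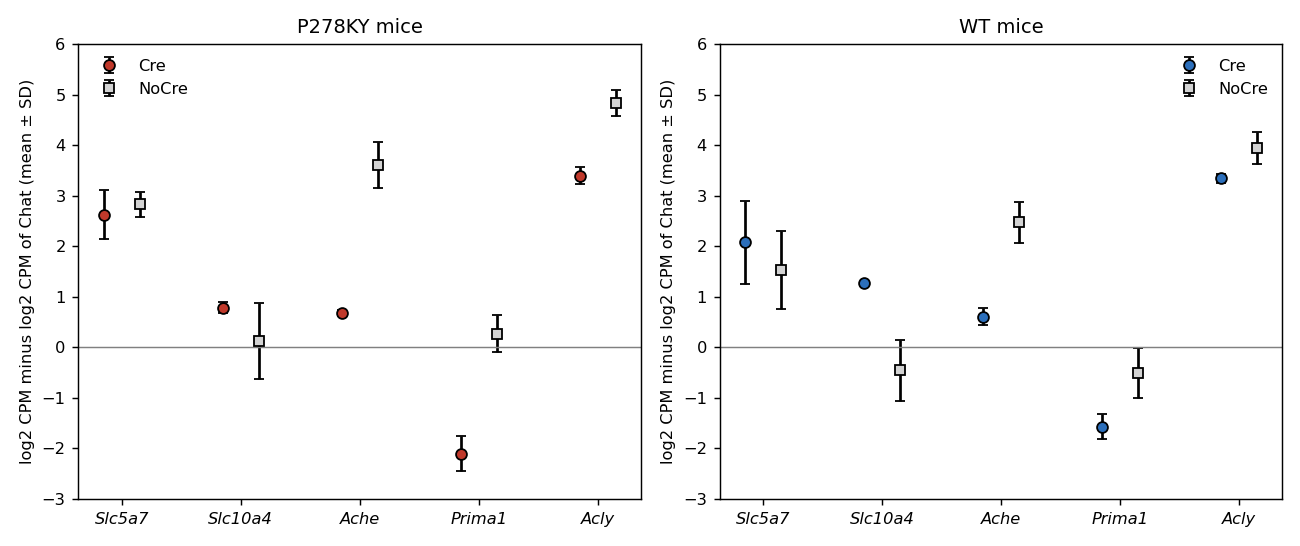
Log2 CPM of each gene minus log2 CPM of Chat in the same library (mean ± SD), for Cre and NoCre libraries of P278KY mice (left) and WT mice (right). Only the step between Cre and NoCre is of interest, since the level depends on gene length. Ache, Prima1 and Acly stand lower in Cre in both genotypes. The mean of Slc10a4 stands higher in Cre, a difference that passed the test in WT mice only.

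The comparison of Cre P278KY with Cre WT asked whether mutant Gars changed these mRNAs on the ribosomes of cholinergic neurons. None of the 6 genes was called. Across all 14717 genes tested, 1.22% were called higher and 1.11% lower. In a bulk pull-down, fewer cells of a type and less RNA per cell cannot be told apart. By edgeR 1 of the 6 had an unadjusted p under 0.05, beside 2378 of the 14717 genes tested. DESeq2 and limma-voom also called none of the 6. The 95% intervals of the log2 fold change show what the 7 libraries allow. They ran from −0.74 to 0.41 for Chat, −0.20 to 1.11 for Slc5a7, −0.54 to 0.42 for Ache, −0.62 to 0.42 for Acly and −1.56 to 0.02 for the anchor gene Prima1. For the vesicle protein gene Slc10a4 the interval lay below 0 before adjustment, from −1.24 to −0.09.

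Slc10a4 was lower in all 3 Cre P278KY libraries (171.3 to 189.5 CPM) than in any Cre WT library (193.3 to 409.6 CPM). The gap to the nearest Cre WT library was small, and 8.45% of genes were lower without overlap. Its log2 fold change was −0.66 ± 0.26 (edgeR, adjusted p = 0.242). Prima1 gave −0.77 ± 0.35 (edgeR, adjusted p = 0.322), with Cre P278KY libraries at 20.9 to 29.7 CPM and Cre WT libraries at 23.99 to 71.4 CPM. Both values changed with how the libraries were divided. Within pool 1, where 3 Cre P278KY libraries meet Cre WT replicates 1 and 2, Slc10a4 gave −1.02 (adjusted p = 0.00705) and Prima1 −1.26 (adjusted p = 0.00537) by edgeR, and with pool as a term in the fit of all 7 libraries −1.02 (adjusted p = 0.00404) and −1.26 (adjusted p = 0.00293). Over all genes tested, 1343 of 14753 were called within pool 1 and 1676 of 14717 with pool as a term. Pool 2 holds no Cre P278KY library, so it gives no value. For the same reason the fold with pool as a term rests on the pool 1 libraries and is not a separate result. With the number in the mouse names as a block, Slc10a4 gave −0.19 (edgeR, adjusted p = 0.570) and Prima1 changed sign to 0.06 (edgeR, adjusted p = 0.891). That fit rests on Cre P278KY replicates 1 and 3 and Cre WT replicates 3 and 4, which alone share a number across genotypes. The former are of pool 1 and the latter of pool 2, so genotype and pool cannot be told apart in it. The other 4 genes did not pass in any of these fits, with log2 fold changes within pool 1 of −0.52 for Chat, 0.64 for Slc5a7, −0.31 for Ache and −0.41 for Acly. In pool 1 the summed motor neuron markers were also lower in Cre P278KY (2769 to 3845 CPM) than in Cre WT libraries (6911 to 7656 CPM), and their part in these values was not tested. Nefh was the largest part of this sum (mean 2375 CPM in Cre P278KY and 4085 CPM in all Cre WT libraries). Over all 7 libraries 6 of the 9 markers had a negative fold change by edgeR. The 3 others were Isl1 (0.66), Mnx1 (0.44) and Ret (0.02). Xist was at 0 to 148.1 CPM in the 3 Cre P278KY libraries and at 0.0824 to 0.311 CPM in Cre WT replicates 1 and 2, which came from males, so this contrast within pool 1 was not balanced for sex. Since Xist also set Cre WT replicates 3 and 4 of pool 2 apart, a term for pool takes up sex with it.

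The ratio of Slc10a4 to Chat, an index chosen after its values were seen, was lower in every Cre P278KY library than in any Cre WT library. Its log2 value was 0.66 to 0.88 in the 3 Cre P278KY libraries, all of pool 1, and 1.26 to 1.29 in the 4 Cre WT libraries of both pools. Of 14716 other genes, 3.62% had a lower ratio to Chat without overlap. The ratio of Prima1 to Chat was −2.38 to −1.72 in Cre P278KY and −1.78 to −1.24 in Cre WT libraries, so the groups overlapped by a narrow margin. The ratio of Acly to Chat was 3.29 to 3.59 in Cre P278KY and 3.23 to 3.46 in Cre WT, and that of Ache to Chat 0.62 to 0.74 and 0.38 to 0.77, with overlap for both.

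**Figure D3:**
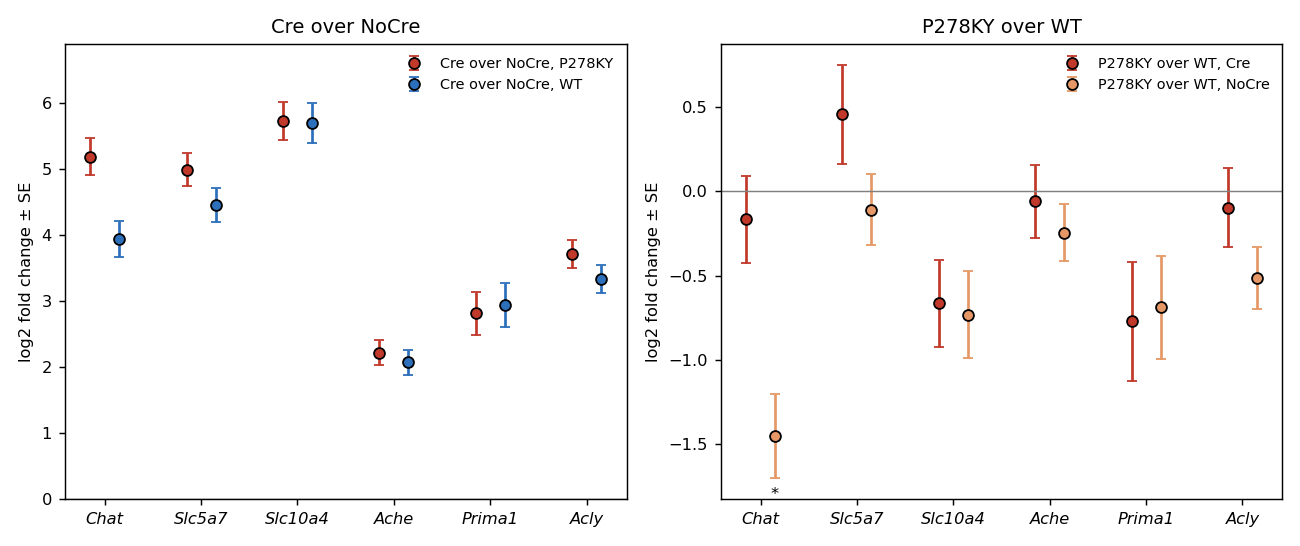
Log2 fold changes ± SE of the 6 genes from the edgeR fits, for Cre over NoCre (left) and P278KY over WT (right). An asterisk marks the one genotype difference with an adjusted p under 0.05, Chat among NoCre libraries, while all 12 Cre over NoCre values passed.

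Chat RNA was lower in NoCre P278KY than in NoCre WT libraries, in the RNA that came down without a tag. Its 6 values in NoCre P278KY (1.93 to 3.58 CPM) lay below all 5 in NoCre WT (5.86 to 12.9 CPM), and the log2 fold change was −1.45 ± 0.25 (edgeR, adjusted p = 0.0339). It was 1 of the 4 genes called lower of 17133 tested, or 0.0233%, and no gene was called higher (1160 genes had an unadjusted p under 0.05, DESeq2 called 28 genes and limma-voom 1). The call depended on the settings and on single libraries. By limma-voom it was lost (−1.39, adjusted p = 0.767), as with library size as the only scaling (−1.07, adjusted p = 0.71). It was also lost within pool 1 (−1.08, edgeR adjusted p = 0.152) and within pool 2 (−1.78, adjusted p = 0.415), but passed with pool as a term (−1.52, adjusted p = 0.0146). Leaving out any one of NoCre P278KY replicates 1, 2, 3, 4 and 5 or NoCre WT replicates 1 and 5 also ended it, with adjusted p of 0.051 to 0.117 by edgeR, while the fold kept its direction.

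Slc10a4 was likewise lower in every NoCre P278KY library (1.39 to 4.44 CPM) than in any NoCre WT library (4.45 to 8.11 CPM), but by a negligible margin, and its log2 fold change of −0.73 ± 0.26 did not pass (edgeR, adjusted p = 0.687). These were the 2 genes of the 6 without overlap, beside 0.379% of all genes. Acly gave −0.51 ± 0.18, Prima1 −0.69 ± 0.31, Ache −0.25 ± 0.17 and Slc5a7 −0.11 ± 0.21, and none of the 4 passed (edgeR, adjusted p of 0.687 to 0.917). Of the 6 genes, 4 with Chat among them had an unadjusted p under 0.05 by edgeR, beside 1160 of 17133 genes tested. By limma-voom 2 of the 6 did, beside 913 of all genes. Of 9 motor neuron markers other than these genes, edgeR called 1 lower in NoCre P278KY (Chodl), DESeq2 5 and limma-voom 0, and 5 had an unadjusted p under 0.05 by limma-voom. By edgeR 8 of the 9 had a negative fold change, and their median log2 fold change was −1.22, beside −0.01 over all genes. Prph, the intermediate filament gene peripherin, had 4.53 to 13.6 CPM in NoCre P278KY and 19.6 to 29.1 CPM in NoCre WT libraries without passing (−1.45, edgeR adjusted p = 0.0689). Ret, a receptor gene of motor neurons, gave 0.01 (edgeR, adjusted p = 0.995). The part of motor neuron RNA content in the Chat difference was not tested.

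The interaction of genotype with Cre compares the enrichment in P278KY mice with that in WT mice. None of the 6 genes was called by edgeR, DESeq2 or limma-voom, and 1 had an unadjusted p under 0.05 by each. Over all genes tested, 1904 had such a p by edgeR, 2147 by DESeq2 and 1839 by limma-voom. Among 17133 genes 0.344% were called higher and 0.309% lower. Chat had the largest value of the 6, 1.24 ± 0.37 (edgeR, adjusted p = 0.145), with a log2 enrichment of 5.19 in P278KY and 3.95 in WT mice. Within pool 1 it was 0.54 (edgeR, adjusted p = 0.347). The lower Chat level in NoCre P278KY libraries and the similar levels in both Cre groups are the values from which this difference is built. Slc5a7 gave 0.54 ± 0.33, Acly 0.38 ± 0.30, Ache 0.15 ± 0.27, Slc10a4 0.03 ± 0.37 and Prima1 −0.13 ± 0.47 (edgeR, adjusted p of 0.59 to 0.993).

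Levels can be set between genes only per length, for which the deposited TPM (transcripts per 1000000) were used. Acly was by far the most abundant of the 6 in both Cre groups, at 1317 ± 168 TPM in Cre P278KY (SD, n = 3) and 1307 ± 162 TPM in Cre WT libraries (SD, n = 4). The choline transporter gene Slc5a7 followed at 206.7 ± 107 TPM in Cre P278KY and 153.5 ± 88.1 TPM in Cre WT, and Ache at 118.2 ± 29.2 and 116.7 ± 19.3 TPM. Slc10a4 was at 72.5 ± 20.5 and 105.3 ± 9.25 TPM, Chat at 57.9 ± 15.4 and 60.1 ± 5.68 TPM, and Prima1 at 46.1 ± 5.29 and 71.4 ± 11.5 TPM. Acly stood clear of the others in every Cre library, and in Cre WT Slc10a4 also stood clear of Prima1. The remaining neighbours in the order overlapped. So Chat, which marks these neurons, was among the least abundant of the 6 per length.

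The TPM scale gave another view of the Cre WT libraries than TMM-scaled CPM. Chat had 58.3, 57.8, 68.4 and 55.8 TPM in Cre WT replicates 1 to 4, with no split between pool 1 and pool 2, and 64.1, 69.3 and 40.3 TPM in Cre P278KY replicates. On this scale both Slc10a4 and Prima1 were lower in every Cre P278KY library than in any Cre WT library, as 3.9% of all genes were. Slc10a4 had 73.8, 92.3 and 51.3 TPM in Cre P278KY and 103.4, 101.7, 118.6 and 97.4 TPM in Cre WT. Prima1 had 43.3, 52.2 and 42.8 TPM in Cre P278KY and 71.1, 85.1, 72.4 and 57.0 TPM in Cre WT. TPM was not tested, and Cre P278KY replicate 3 was the lowest of its group for all 6 genes.

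In NoCre libraries the order was different. Acly again led with 100.7 ± 11.4 TPM in NoCre P278KY (SD, n = 6) and 130.1 ± 27.7 TPM in NoCre WT (SD, n = 5), but Ache came next with 22.0 ± 7.18 and 18.7 ± 8.22 TPM. Prima1 followed with 7.36 ± 2.91 and 8.00 ± 3.13 TPM and Slc5a7 with 6.46 ± 1.86 and 5.69 ± 3.19 TPM. Chat (1.69 ± 0.57 and 3.37 ± 1.31 TPM) and Slc10a4 (1.51 ± 0.71 and 1.84 ± 1.01 TPM) were lowest. Acly overlapped with no other gene, and Slc5a7 and Chat overlapped in NoCre WT only.

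The deposited gene length is the mean over a gene's transcripts weighted by their estimated abundance, so it moves only when the mix of transcripts moves. Chat, Slc5a7 and Slc10a4 have 1 transcript each in the tables and a fixed length. For Ache, with 8 transcripts, the mean length was shorter in Cre than in NoCre libraries of both genotypes without overlap. It was 2225, 2248 and 2238 bases in Cre P278KY, against 2574 (lowest), 2752 (median) and 2981 bases (highest) in NoCre P278KY. In Cre WT it was 2238, 2260, 2234 and 2240 bases, against 2679, 2863, 2976, 2920 and 2757 bases in NoCre WT. The difference was −532 bases in P278KY and −596 bases in WT mice. The exact permutation test gave the smallest p that it can, 0.0119 and 0.00794, but after adjustment over 18 tests, 9 of them of a fixed length, neither passed (adjusted p = 0.107 for both). Between Cre P278KY and Cre WT the length of Ache differed by −6.13 bases (exact permutation test, adjusted p = 1).

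Of the 8 Ache transcripts, GENCODE M21 gives 1 with a retained intron (Ache-208) a length of 3687 bases and the others at most 2186 bases. With these lengths a mean above 2186 bases needs some of the retained-intron transcript. Its smallest possible share of Ache transcripts is then 2.61% to 4.11% in Cre P278KY and 3.23% to 4.94% in Cre WT libraries, against 25.8% to 52.9% in NoCre P278KY libraries, with 32.8% to 52.6% in those of NoCre WT. The annotation behind the deposited lengths is not given in the sources used here, and it is not M21 throughout, since Slc10a4 is 3813 bases long in the tables and 2106 in M21. The TPM of Slc10a4 rests on the longer value, so its place in the order of levels above depends on the annotation. Prima1, with 5 transcripts, stayed near its main coding transcript of 909 bases, at 904.9 to 909 bases in Cre and 864 to 999.6 bases in NoCre libraries. Acly, with 7 transcripts, varied from 1196 to 1956 bases in Cre and from 872.8 to 1812 bases in NoCre libraries, much below its longest coding transcript of 4426 bases in M21. Since TPM divides by this mean length, the Acly level per length depends on it. With TMM-scaled CPM per 1000 bases of the longest coding transcript in its place, Acly was at 249.9 in Cre P278KY and 274.6 in Cre WT libraries, against 130.3 and 96.5 for Slc5a7, and still led.

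**Figure D4:**
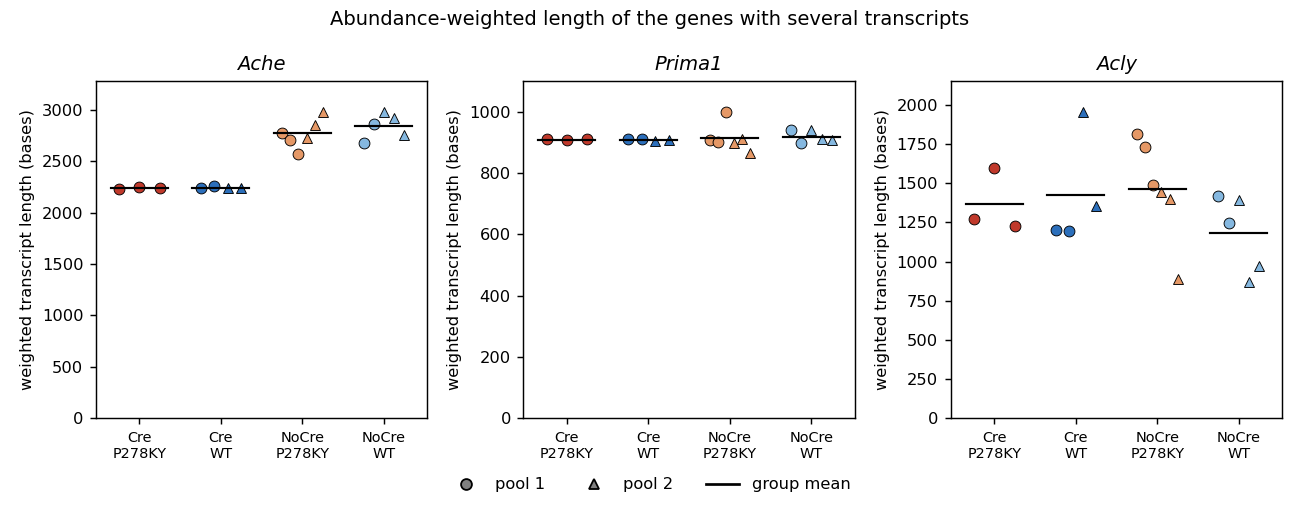
Abundance-weighted transcript length in bases of the genes with several transcripts, by library and group, with a line at the group mean. Ache lies at 2225 to 2260 bases in all 7 Cre libraries and at 2574 to 2981 bases in all 11 NoCre libraries, while Prima1 and Acly overlap between Cre and NoCre.

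Other genes of acetylcholine metabolism were split. Most of those that supply acetyl-CoA were higher in Cre, as Acly was, while the butyrylcholinesterase gene was lower. Of 8 choline genes 3 were lower, a share near that over all genes. Of 21 listed genes 19 were found by name and 17 passed the filter. In P278KY mice 8 of the 17 were called higher in Cre and 4 lower, beside 28.2% and 31.2% of all genes tested. In WT mice it was also 8 and 4, beside 28.5% and 31.2%. Their median log2 fold change was 0.59 in P278KY and 0.54 in WT mice, beside −0.13 and −0.12 over all genes tested. Of the 6 genes of acetyl-CoA supply, 5 were called higher in both genotypes. Slc25a1, the mitochondrial citrate carrier, gave 2.67 ± 0.32 in P278KY and 3.07 ± 0.33 in WT mice, and Pdhb, a subunit of pyruvate dehydrogenase, 2.41 ± 0.21 and 2.02 ± 0.21. Cs, citrate synthase, gave 1.26 ± 0.15 and 1.34 ± 0.15 (edgeR, adjusted p of 5.34e-09 to 7.25e-07 for these 3 genes). Acss2, which makes acetyl-CoA from acetate, did not pass in either (−0.30 and 0.02).

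Of 8 choline genes tested, 2 were called higher and 3 lower in both genotypes, shares near those over all genes (28.2% higher in P278KY and 28.5% in WT mice, 31.2% lower in each). Gpcpd1 and Pnpla6, which act in the release of choline from phospholipid, were called higher, with Gpcpd1 at 0.62 in P278KY and 1.39 in WT mice. Chka, choline kinase alpha, fell by 1.36 in P278KY and by 1.17 in WT mice, and Enpp6, a choline phosphodiesterase made by oligodendrocytes, gave −3.52 and −2.05 (edgeR, adjusted p of 4.82e-05 to 0.00118 for both genes). Slc44a1, a widely expressed choline transporter, was also called lower in both. Among breakdown and anchoring genes, Bche, butyrylcholinesterase, gave −2.29 in P278KY and −1.73 in WT mice (edgeR, adjusted p = 7.16e-05 and 0.000343), and so went the other way from Ache. Plec, a cytoskeletal linker, was called higher, and Colq, the collagen tail of acetylcholinesterase at the muscle, did not pass in either genotype.

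**Figure D5:**
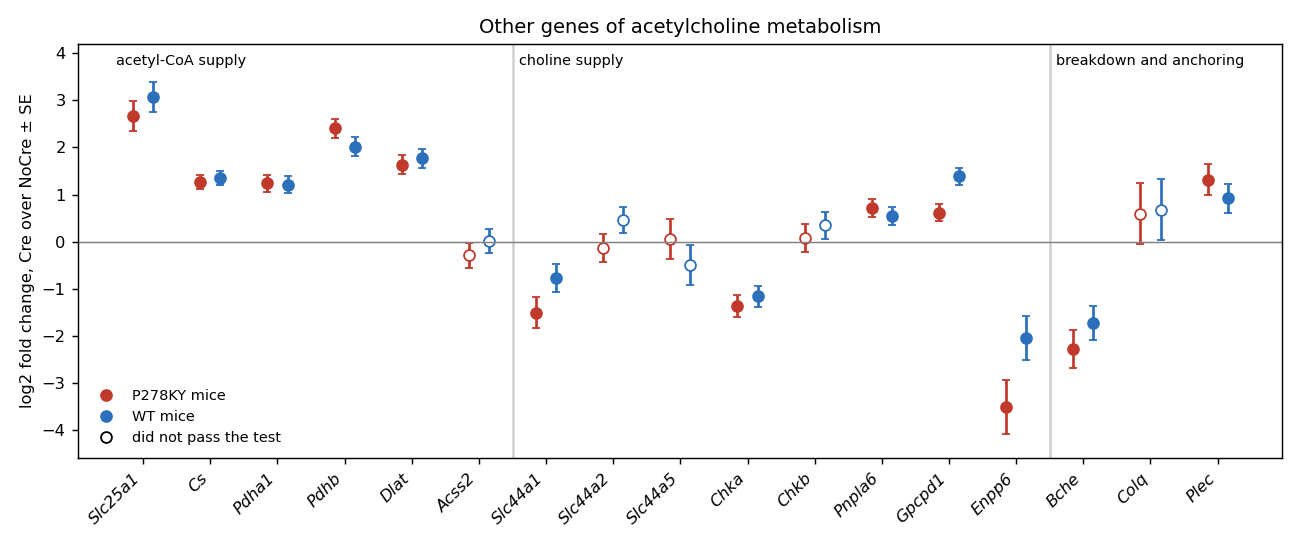
Log2 fold change ± SE of Cre over NoCre for 17 other genes of acetylcholine metabolism in P278KY mice (red, left of each pair) and WT mice (blue, right), with open symbols where the adjusted p was 0.05 or above. Genes of acetyl-CoA supply other than Acss2 lie above 0, while Slc44a1, Chka, Enpp6 and Bche lie below 0.

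None of the 17 genes was called between Cre P278KY and Cre WT by edgeR or limma-voom. DESeq2 called 1 lower, beside 546 of the 14717 genes tested. By edgeR 4 of the 17 had an unadjusted p under 0.05, beside 2378 of all genes tested. The gene with the smallest adjusted p, Gpcpd1, was chosen after its values were seen. It was lower in all 3 Cre P278KY libraries (67.2 to 77.7 CPM) than in the 4 Cre WT libraries (94.3 to 143.1 CPM), at −0.72 ± 0.18 (edgeR, adjusted p = 0.079). Of all genes tested, 8.45% were lower without overlap. In the NoCre genotype difference and in the interaction none of the 17 was called by edgeR, DESeq2 or limma-voom. By edgeR 2 had an unadjusted p under 0.05 in each, beside 1160 and 1904 of the 17133 genes tested.

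Chat, Slc5a7 and Slc10a4 shared genes among those whose pattern over the 18 libraries was most like theirs, and the other 3 did not. Likeness was the root mean square difference of log2 CPM after each gene was centred on its mean, among 11763 protein-coding genes, and it reflects mostly the shared step between Cre and NoCre libraries. For Chat the nearest were Arhgap36 (0.433), Tubb3 (0.519), Vdr (0.541), Prph (0.542) and Sncg (0.596), where the median over all genes was 2.24. For Slc5a7 they were Arhgap36 (0.504), Vdr (0.548), Htr2a (0.606), Ret (0.689) and Gna14 (0.695). For Slc10a4 they were Arhgap36 (0.689), Prph (0.69), Lgals1 (0.707), Calcb (0.76) and Uts2 (0.768). Arhgap36 was thus the nearest gene to all 3 of the most enriched genes. The nearest to Ache were Cplx1 (0.185), Pkm (0.196), Wbp2 (0.196), Sept5 (0.197) and Dstn (0.198). The nearest to Prima1 were Tubb4b (0.265), Thy1 (0.329), Esd (0.33), Tubb2a (0.332) and Tppp3 (0.333), and to Acly Mcam (0.178), Capn1 (0.282), Anxa2 (0.31), Slc41a3 (0.329) and Bag3 (0.348). No gene was among the nearest 5 of more than 1 of Ache, Prima1 and Acly.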

How the data were processed

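Ribosome-associated mRNA was sequenced from spinal cords of 18 mice, grouped by the genotype in the labels, and replicate numbers follow the order of submission. Each library's gene table, as the authors deposited it, holds RSEM expected counts, TPM and abundance-weighted transcript lengths in bases, per the file headers. Per the submitters' processing notes the tools were RSEM 1.2.12 and Bowtie2 2.2.0. Build, annotation and strand setting: not given in the sources used here. The deposited expected counts were rounded to whole numbers. Tests were quasi-likelihood F tests (edgeR 4.0.16, R 4.3.3) after filterByExpr and TMM scaling, robust and two-sided, with 95% intervals from the fit's degrees of freedom, with Benjamini-Hochberg adjustment over all genes and a threshold of 0.05. The Cre genotype difference used the 7 Cre libraries, and the 4 other comparisons a fit of all 18 with 4 group means. Alternatives included DESeq2 1.42.0, limma-voom (limma 3.58.1), other scalings and filters, left-out libraries, pools (inferred from index and sample numbers in the library names) and a block of the number in the mouse names. Ratios to Chat (prior count 2) and weighted lengths (libraries with at least 10 reads) were compared by exact permutation tests. The deposited TPM values were described only, and an added per-length scale was chosen after seeing the data. The procedures were tested on simulated data.

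The 6 genes, the lists and the tests were chosen with earlier results of these data known. All 6 genes were named in every comparison. Of the other pathway genes those called in the Cre genotype difference or the interaction were to be named, and in each enrichment up to 3 per direction with the smallest adjusted p. For likeness the 5 nearest protein-coding genes with a mean log2 CPM above 1 were named. The labels do not say whether mice of a group were littermates, so p-values measure only the spread between these libraries. Reads are PCR copies without molecular identifiers, so low counts carry more than counting error. Slc18a3 was not analysed here.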

Additional observations from a re-analysis of the deposited data

Results flagged for a closer look

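Chat in NoCre WT replicate 5 was far from the rest of its group, at 12.9 CPM against a next highest value of 7.85 CPM, a gap of 0.718 of the group's range. Of 18 gene and group combinations examined for such a library it was the 1 found, and chance gives about 1 in 20. Mitochondrial ribosomal RNA took 45% of its counts, in a group that ran from 31.8% to 53.8%. Without it the Chat difference between NoCre P278KY and NoCre WT was −1.23 on the log2 scale and no longer passed (edgeR, adjusted p = 0.107).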

How the results depend on the processing

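The 6 genes stayed called higher in Cre under every alternative run, in both genotypes. Between Cre P278KY and Cre WT the 342 genes called became 148 with library size as the only scaling, 972 with DESeq2, 1676 with pool as a term and 1343 within pool 1, the last 2 with 2 of the 6 genes called (Slc10a4 and Prima1), and 95 to 324 with 1 library left out. Within pool 2, 4955 genes were called between Cre WT and NoCre WT, against 10228. Of the 4 genes called between NoCre P278KY and NoCre WT, the count became 2 by library size, 28 by DESeq2, 1 by limma-voom, 2 within pool 2, 2 without NoCre WT replicates 4 and 5 (a choice made after seeing the data) and 2 to 6 with 1 library left out. The call of Chat there fell away (0 of the 6 genes) by library size, by limma-voom, within pool 1, within pool 2 and without those replicates (adjusted p = 0.577), and 0 to 1 were called with 1 library left out. The interaction count of 112 became 5 by library size, 382 with DESeq2, 406 within pool 1 and 41 to 250 with 1 library left out. Of 10 ratios to Chat 7 passed, and 4 to 7 did with 1 library left out, where the smallest possible p is higher. None of the length tests passed in any setting. For Ache between Cre and NoCre the p was already the smallest possible, so leaving out a library could not lower it. Values near 0 changed sign. By library size Ache gave 0.0334 in the Cre genotype difference, 0.12 among NoCre libraries and −0.0915 in the interaction, Slc5a7 0.14 among NoCre libraries and Slc10a4 −0.19 in the interaction. Within pool 2 Slc5a7 gave 0.0464 among NoCre libraries. In the interaction, Slc10a4 gave −0.13 with pool as a term and, within pool 1, −0.39, Ache −0.29 and Acly −0.19. The Slc5a7 to Chat ratio in WT mice was −0.50 within pool 1. With 1 library left out, the Cre genotype difference ran from −0.19 to 0.0582 for Ache and −0.22 to 0.0225 for Acly, and the interaction from −0.16 to 0.23 for Slc10a4 and −0.29 to 0.23 for Prima1. The Slc5a7 to Chat ratio in P278KY mice ran from −0.41 to 0.0658. Length differences ran from −13.98 to 13.15 bases for Prima1 between Cre and NoCre P278KY libraries, and from −0.63 to 1.12 bases for Prima1 and −175.8 to 115.9 bases for Acly between Cre P278KY and Cre WT. The cause of these changes was not tested.

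With the mouse number as a replicate block, 1664 genes were called in the Cre genotype difference, where Chat gave 0.35, Slc10a4 −0.19, Ache 0.29, Prima1 0.05996 and Acly 0.39, none of them called. This contrast rests on Cre P278KY replicates 1 and 3 of pool 1 and Cre WT replicates 3 and 4 of pool 2. Genotype and pool cannot be told apart in it. Among NoCre libraries 2 genes and 0 of the 6 were called, with Chat at −0.88, Prima1 at 0.16 and Acly at 0.0339, and in the interaction 1 of the 6 (Chat, 1.28, adjusted p = 0.0366). Libraries that share a number in different groups correlated at −0.123 to 0.176 in 11 pairs across pools and at −0.0193 in 1 pair within a pool. Those without a shared number correlated at −0.148 to 0.217 across pools and at −0.219 to 0.206 within a pool. With 1 such pair within a pool, whether the number pairs mice cannot be decided.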
